A study of Mus musculus with 32 samples.

Results

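The liver of 8 female C57bl/6J OlaHsd mice, all 20 weeks old and all born to mothers fed the 9% diet during gestation, was compared by offspring diet. The HighFat 9% group (5F to 8F by title) held 4 mice that ate a high-fat diet, its fat given as 36%, for 14 weeks beginning at 6 weeks of age. The Control 9% group (1F to 4F) held 4 mice on the control diet over the same period. Both groups therefore shared the maternal diet with 90 g of casein per kg, and by the labels they differed only in the diet eaten from that age on. These 8 of the 32 arrays of the series were taken by their titles and by the array version used for females, and no measured value entered the choice. Of the other arrays, 8 came from females of 18% mothers (HighFat 18% and Control 18%) and served as the nearest comparison, with males of 9% mothers on another array version after them. Each array was labelled a biological replicate and no litter was given, so sisters may have been among them. The p-values and standard errors of the female changes used the spread within groups, pooled over all 16 female arrays, not these 8 alone. The number of arrays, 4 in a group, limited the precision of every value below.

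The liver takes up dietary fat and stores it as triglyceride in lipid droplets, exports it in lipoproteins, or burns it in mitochondria and peroxisomes, where the nuclear receptor PPAR-alpha drives many of the genes. It also makes cholesterol and bile acids, and it secretes most plasma proteins, including complement, clotting factors and protease inhibitors, after folding them in the endoplasmic reticulum (ER). A diet rich in fat is widely known to raise genes of lipid storage and fatty acid use in mouse liver, while genes of sterol synthesis answer to the cholesterol in the cell.

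The female arrays carried 25697 probes, of which 12561 were detected on at least 4 of the 16 female arrays, and 1 probe per gene left 9446 features, 8711 of them named genes. All levels are given as log2 intensity after background correction and quantile normalization, and all changes as HighFat 9% minus Control 9% on that scale with their standard error. The detected share of probes was 44.0 to 46.0% on HighFat 9% arrays and 45.4 to 47.3% on Control 9% arrays, and pairs of arrays correlated at 0.973 to 0.991. Before normalization the mean raw intensity was 349, 313, 300.0 and 410 on the HighFat 9% arrays, against 453, 409, 461 and 366 on the Control 9% arrays. Raw intensity was thus lower on 3 of the HighFat 9% arrays than on any Control 9% array, and its part in the results was not tested beyond the adjusted values given below.

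High-fat feeding changed 411 of the 9446 features at an adjusted p under 0.05 (limma with Benjamini-Hochberg adjustment over all features), or 4.35%, with 231 higher (2.45%) and 180 lower (1.91%). The median size of these changes was 0.58 and their median standard error 0.13, and 43 rose and 14 fell by more than 2-fold. All 4 HighFat 9% livers lay above or below all 4 Control 9% livers in 375 of the 411, or 91.2%, against 1031 of all 9446 features, or 10.9%. The 411 were called on these same values, which largely sets that share. The calls held 367 named genes and 44 probes without a gene symbol, and 124 of the 137 other probes of the called genes moved the same way, 48 of them past the threshold. Leaving out 1 array gave between 83 calls (without HighFat 9% replicate 3) and 608 (without HighFat 9% replicate 4), and 69 of the 411 passed in all 8 such fits. Scaling each array to the same median instead of quantile normalization gave 132 higher and 547 lower, around a median of all features moved by -0.10. With mean raw intensity as a covariate, 3 features passed (Pltp, Fads1 and Ifi27l2b, all higher than in Control 9% livers), while 411 of 411 kept their sign at a median size of 0.47 and a median standard error of 0.16. These signs were read on the same arrays on which the 411 were called. With all arrays and no covariate, 2044 features had an unadjusted p under 0.05 by limma. Leaving out the 4 dimmest female arrays, 3 of them HighFat 9%, left HighFat 9% replicate 4 alone in its group. Every value given below without these 4 arrays thus rests on 1 HighFat 9% mouse.

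Genes of lipid handling were among the largest rises. Pltp, the phospholipid transfer protein that moves phospholipids between lipoproteins, stood at 10.96, 11.13, 11.29 and 10.79 in HighFat 9% livers, against 9.01, 8.67, 8.63 and 8.40 in Control 9% livers. The groups were far apart, with a change of 2.37 ± 0.23 (adjusted p = 0.000112), and a further probe gave 2.12. Apoa4, an apolipoprotein of triglyceride-rich particles, had 13.39, 13.13, 12.86 and 12.54 in HighFat 9% livers, against 10.87, 10.86, 10.52 and 10.60 in Control 9% livers. No Control 9% liver came near the lowest HighFat 9% liver, and the change was 2.27 ± 0.29 (adjusted p = 0.00171). Cidec, a protein that enlarges lipid droplets, read 7.83, 6.79, 6.92 and 6.34 in HighFat 9% livers, against 4.62, 5.00, 4.76 and 4.61 in Control 9% livers. It was detected on all 4 HighFat 9% arrays and on none of the Control 9% arrays, so its rise was at least 3.59-fold (adjusted p = 0.0409). Such a bound sets the bright group's mean against the dimmest well-detected signal of the other arrays. Mogat1, which makes diacylglycerol from monoacylglycerol, followed the same pattern at 7.59, 6.61, 6.49 and 5.53 in HighFat 9% livers, against 4.70, 4.88, 4.78 and 4.64 in Control 9% livers. It was at least 2.69-fold higher (adjusted p = 0.0258). For Cidec and Mogat1 the 4 HighFat 9% arrays were by themselves enough to pass the detection filter. Their pattern of detection is thus no separate support for a rise, and the bounds, set on means, leave out the standard error. HighFat 9% replicate 1 was the highest and replicate 4 the lowest of its group for Apoa4, Cidec and Mogat1. In bulk tissue, fewer or more cells of a type and less or more RNA per cell cannot be told apart.

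**Figure D1:**
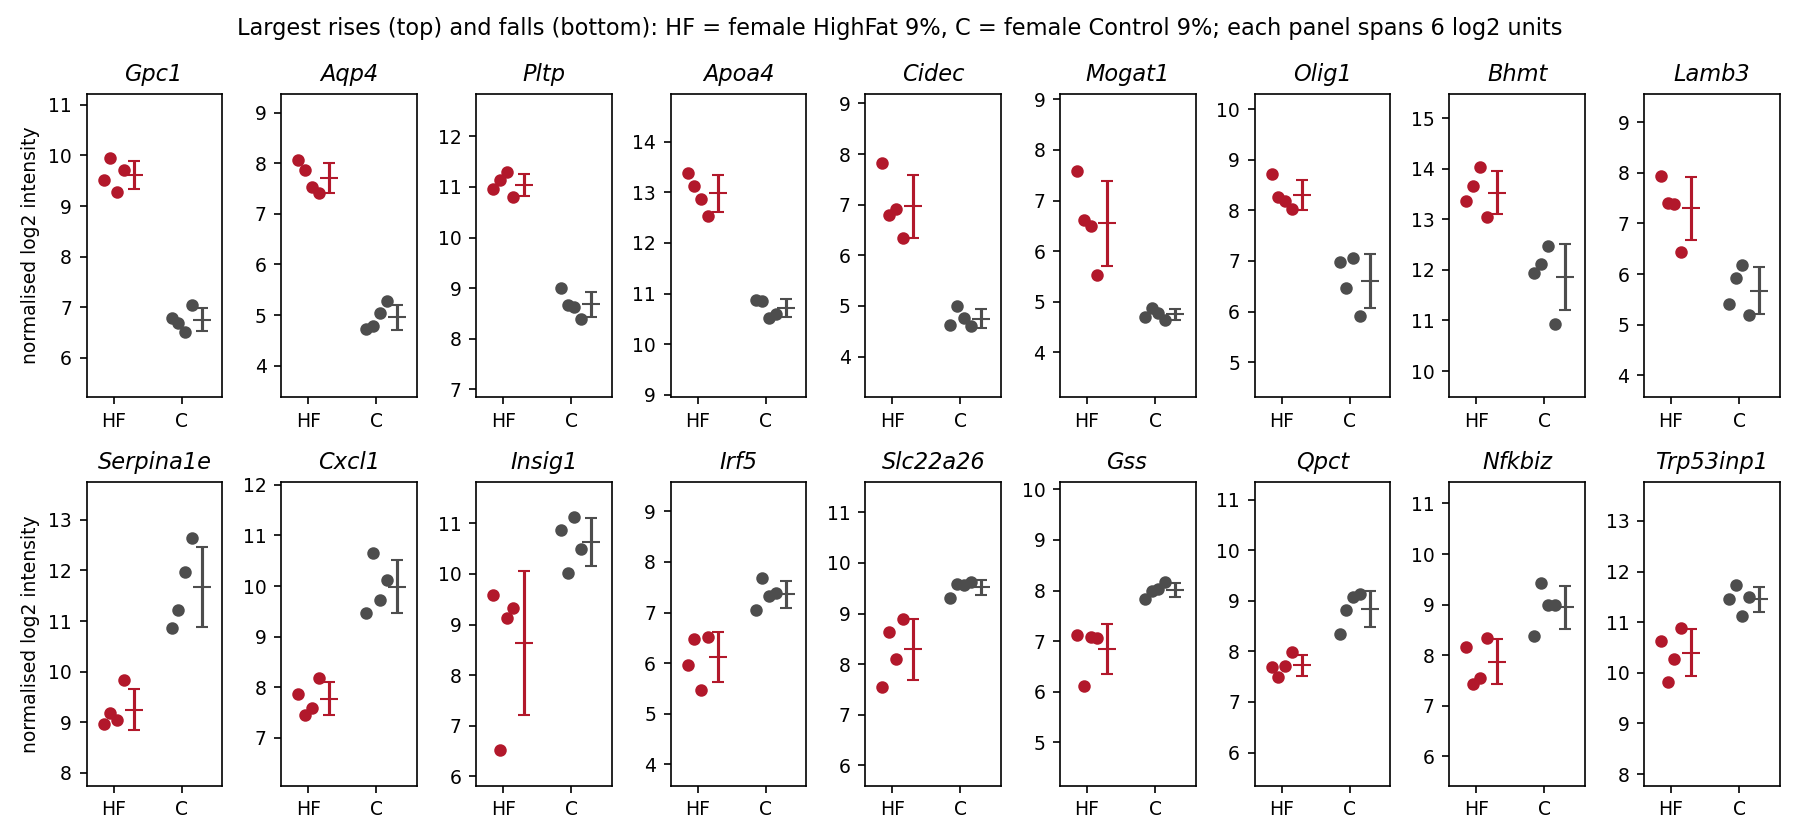
Log2 intensity on each HighFat 9% array and each Control 9% array for the genes with the largest changes, with HighFat 9% left of Control 9%, a point for each array and a bar for the group mean with its SD (n = 4); each panel spans 6 log2 units. Pltp lies between 10.79 and 11.29 in HighFat 9% livers and between 8.40 and 9.01 in Control 9% livers, and the single low Insig1 point at 6.51 is HighFat 9% replicate 2.

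Genes past the threshold in all 8 fits that left out 1 array included Gpc1, Aqp4, Pltp, Apoa4, Olig1, Bhmt, Slc39a5, Ifi27l2b, Apoc2, Fads1, Fads2, Elovl5, Slc25a1, Dhcr7, Tm7sf2, Ndufb5, Mrpl40, Gstm2, Gstt3, Aldh1a7, Cyp17a1 and Lmo4 among the rises. Among the falls they included Cxcl1, Gss, Qpct, Slco1b2, F5, Klkb1, Pdia3 and Usp18. At the other end, Ddx58 and Suclg1 passed in none of these fits, and Cidec, Fitm1, Plin5, Lamb3, Ppara, Cox4i1, Cox6b1, Mrps15, Serpina1e, Trp53inp1, C8b, Cyp2c50, Dusp6, Jak2, Lum and Sort1 in 1 of them.

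The other large rises included proteins of the cell surface, the matrix and 1-carbon metabolism. Gpc1, a heparan sulphate proteoglycan of the cell surface, had the largest change of all features. It read 9.52, 9.94, 9.27 and 9.71 in HighFat 9% livers, against 6.78, 6.70, 6.51 and 7.04 in Control 9% livers, a difference of 2.85 ± 0.54 (adjusted p = 0.0119). The water channel Aqp4 read 8.06, 7.86, 7.52 and 7.42 in HighFat 9% livers, against 4.72, 4.79, 5.04 and 5.27 in Control 9% livers, where 1 array detected it, a rise of at least 5.92-fold (adjusted p = 0.00867). Both varied widely in Control 18% livers, with Gpc1 at 6.34, 6.66, 9.94 and 8.30 and Aqp4 at 4.78, 4.84, 7.21 and 6.14. Replicate 3 there lay among the HighFat 9% values for Gpc1 and just under them for Aqp4. The changes after 18% mothers were 1.86 and 1.38, neither past the threshold. Bhmt, which remethylates homocysteine with betaine, was at 13.36, 13.67, 14.04 and 13.04 in HighFat 9% livers, against 11.94, 12.11, 12.47 and 10.93 in Control 9% livers. The lowest HighFat 9% liver lay above the highest Control 9% liver for each of these 3 genes, and Bhmt rose by 1.66 ± 0.27. Olig1, a transcription factor best known from glial cells, rose by 1.70, the laminin chain Lamb3, detected on 3 Control 9% arrays, by 1.62, the protease inhibitor Wfdc2 by 1.52 with a further probe at 1.43, and the melanin enzyme Dct by 1.49. Lgals1, galectin-1, rose by 1.39, and the phospholipase Pla2g4f, detected on none of the Control 9% arrays, was at least 1.99-fold higher. For Pla2g4f and Aqp4 too the 4 HighFat 9% arrays were by themselves enough to pass the detection filter. The zinc transporter Slc39a5 rose by 1.56 on 1 probe that 2 Control 9% arrays detected, while its other probes gave 0.96, 0.49 and 0.19 and missed the threshold. The interferon-inducible Ifi27l2b rose by 1.48 ± 0.19, with 6.88, 7.07, 7.08 and 7.07 in HighFat 9% livers, against 5.96, 5.83, 5.64 and 4.75 in Control 9% livers, 3 of which detected it.

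Among the falls, Cxcl1, a chemokine that draws neutrophils, read 7.86, 7.46, 7.60 and 8.19 in HighFat 9% livers, against 9.46, 10.66, 9.72 and 10.12 in Control 9% livers. All HighFat 9% livers lay well below the Control 9% livers, and the change was -2.21 ± 0.43 (adjusted p = 0.0145). Serpina1e, 1 of the alpha-1-antitrypsin copies of the mouse, had 8.96, 9.19, 9.04 and 9.83 in HighFat 9% livers, against 10.86, 11.22, 11.96 and 12.64 in Control 9% livers, a change of -2.42 ± 0.66 (adjusted p = 0.0481). Its near-identical paralogs could share signal with its probe, so that its identity is uncertain. Insig1, which holds the sterol sensor SCAP in the ER when sterols are plentiful, read 9.57, 6.51, 9.13 and 9.32 in HighFat 9% livers, against 10.87, 10.03, 11.12 and 10.50 in Control 9% livers. HighFat 9% replicate 2 lay far under the rest of its group. The change was -1.99 ± 0.51 (adjusted p = 0.0372) with it and -1.29 without it (adjusted p = 0.0528), and the other probes gave -0.48 and -0.43 without passing. Irf5, a transcription factor of innate immunity, fell by 1.25, the transporter Slc22a26 fell by 1.22, and the glutaminyl cyclase Qpct fell by 1.12. The changes were -1.07 for Nfkbiz, a regulator of NF-kappa-B target genes, -1.05 for the p53-inducible Trp53inp1 (a further probe at -0.89 did not pass), -1.05 for the ABC transporter Abca8a and -0.98 for the phospholipase Pla2g12a, all of which fell. Slco1b2, which carries bile acids and other anions into hepatocytes, read 10.80, 10.12, 10.82 and 11.21 in HighFat 9% livers, against 11.64, 11.48, 11.88 and 11.89 in Control 9% livers, and fell by 0.98 ± 0.18 (adjusted p = 0.0099). It was the only 1 of 20 tested genes of bile acid synthesis and transport that passed (5%, near the 4.35% of all features).

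By gene list, lipid genes changed in part, each count to be read against the 4.35% of all features. Of 17 lipid droplet proteins 3 rose: Cidec, the fat storage-inducing Fitm1, detected on 3 HighFat 9% arrays and none of the Control 9% arrays and at least 1.44-fold higher, and Plin5, a coat protein of droplets in oxidative tissue, by 0.75 (a further probe at 0.29 missed the threshold). The list's median change was 0.20, against a median of 0.00 over all features. Without HighFat 9% replicate 3 none of the list passed. Without the 4 dimmest female arrays, with 1 HighFat 9% array left, the list's median was 0.05. Of 24 genes of lipoproteins and lipid transfer 4 rose: Pltp, Apoa4, Apoc2 (an activator of lipoprotein lipase, by 1.15 ± 0.18) and Angptl4 (an inhibitor of that lipase, by 1.00 ± 0.23). In the same list 1 fell, Sort1, a sorting receptor, by 0.86, with a further probe that also passed and another at -0.13 that did not (named after its value was seen). Desaturation and elongation gave 3 rises of 14 tested genes: Fads2 by 1.26 ± 0.25, Fads1 by 0.72 ± 0.10 and the elongase Elovl5 by 0.69 ± 0.12. Fads1, the delta-5 desaturase, read 14.23, 14.44, 14.42 and 14.53 in HighFat 9% livers, against 13.71, 13.48, 13.79 and 13.75 in Control 9% livers, with tight groups and a clear gap. In de novo fatty acid synthesis 1 of 11 genes rose, the citrate carrier Slc25a1 by 0.55 (a further probe at 0.32 did not pass). Fasn itself, the fatty acid synthase, had a change of 0.41 ± 0.54 and Scd1, the delta-9 desaturase, of 0.59 ± 0.20, neither past the threshold. Of 17 PPAR-alpha targets, Ppara itself rose by 0.55 and the acyl-CoA synthetase Acsl5 by 0.58, and the omega-hydroxylase Cyp4f14 fell by 0.81, while Cyp4a14, another omega-hydroxylase, had 0.16 ± 0.29 and did not pass. Crat, carnitine acetyltransferase, was the 1 rise among 21 genes of mitochondrial fatty acid oxidation (1.17 ± 0.30, with further probes at 0.50 and 0.24 that did not pass). Pex11a, which divides peroxisomes, was the 1 rise among 28 peroxisome genes (0.92, with further probes at 1.06 and 1.01).

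**Figure D2:**
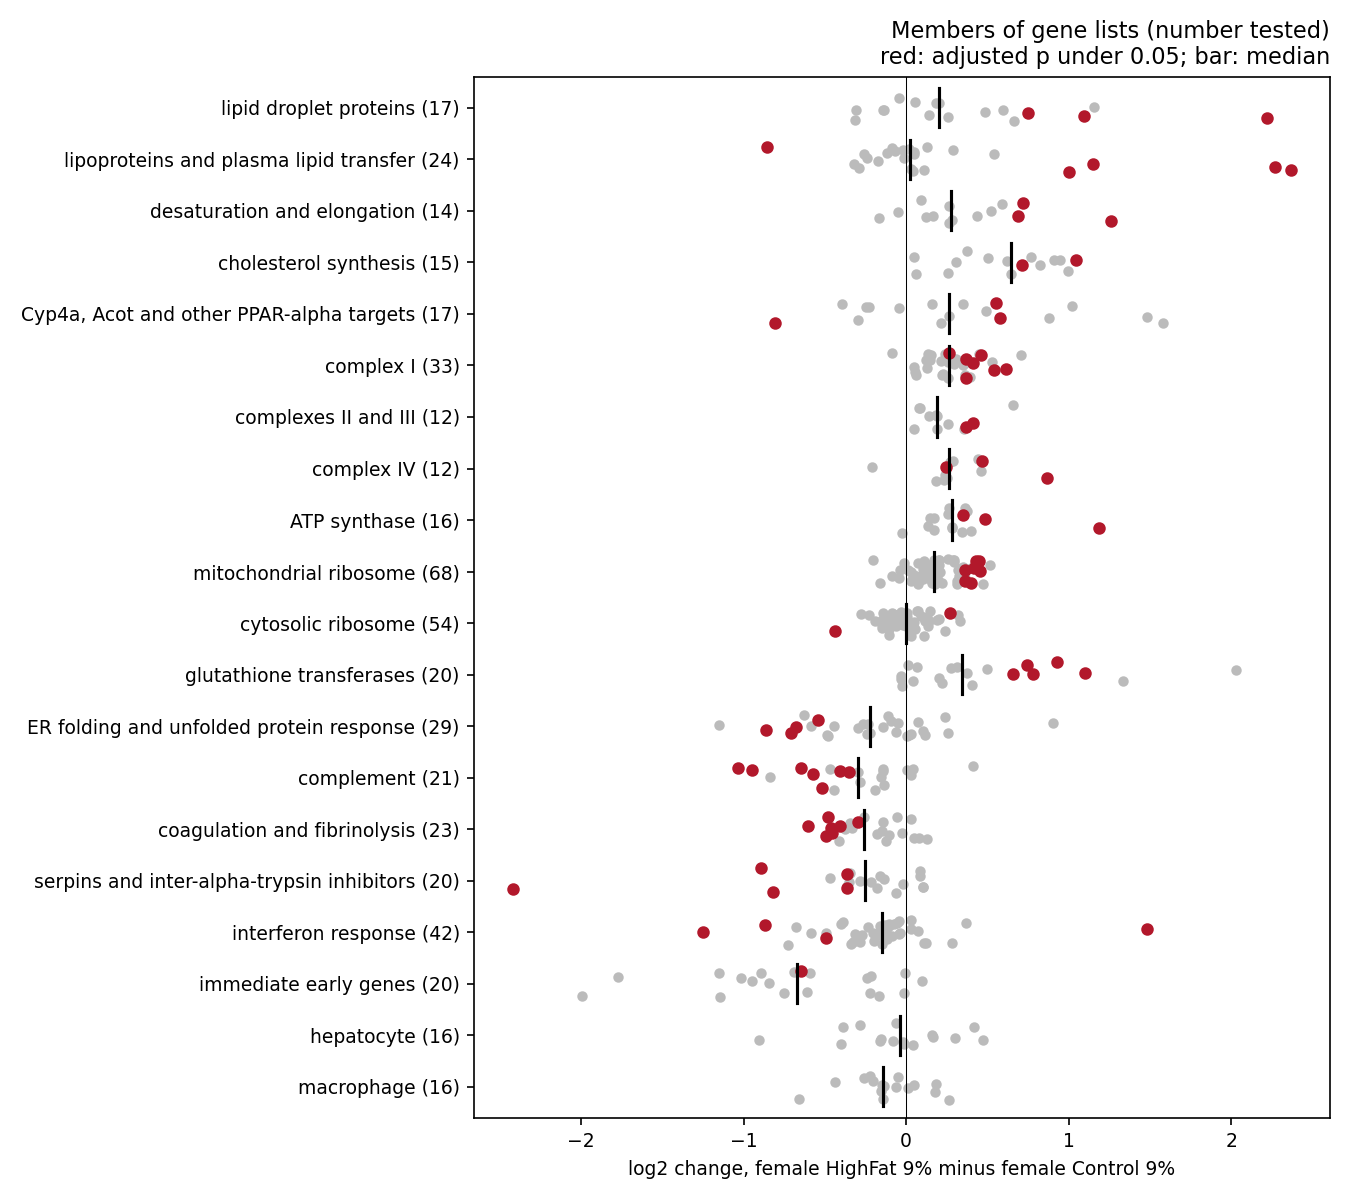
Change of every tested member of the gene lists, in log2 units as HighFat 9% minus Control 9%, a row for each list, a point for each gene, red where it passed the threshold and grey otherwise, and a bar for the list's median. The medians of the oxidative phosphorylation rows sit right of 0 and those of the complement, coagulation and serpin rows left of it, with some members on the other side.

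Genes of cholesterol synthesis lay higher in HighFat 9% livers as a group, though few passed. All 15 tested genes had a positive change with a median of 0.64, in 7 of them every HighFat 9% liver was above every Control 9% liver, and 2 rose (13.3%). Of all 9446 features 49.8% had a positive change and 2.45% rose, and in 533 every HighFat 9% liver was above every Control 9% liver. Dhcr7, the last enzyme of 1 branch of the pathway, read 9.08, 9.12, 9.59 and 9.16 in HighFat 9% livers, against 8.47, 8.17, 8.14 and 7.99 in Control 9% livers (1.04 ± 0.19, adjusted p = 0.0099). Tm7sf2, the sterol C14-reductase, read 9.30, 9.06, 9.42 and 9.25 in HighFat 9% livers, against 8.57, 8.58, 8.33 and 8.68 in Control 9% livers (0.71 ± 0.12, adjusted p = 0.00867). The median deviation of the list was 0.68, 0.64, 0.81 and 0.71 on the HighFat 9% arrays, against 0.28, -0.01, -0.03 and -0.29 on the Control 9% arrays, in log2 units from the Control 9% mean of each gene, so the Control 9% livers were the more scattered. Promoters of sterol genes commonly carry a CCAAT box, the site of NF-Y, which works beside the sterol-regulated factor SREBP. CCAAT, read on both strands over 250 bases before to 50 bases after the start, stood in the RefSeq promoters of 13 of 13 matched cholesterol genes, against 43.3% of 7113 tested genes with a promoter and 37.4% of all 32851 promoters. The 250 bases before the start of Tm7sf2 (GRCm38.p6, RefSeq, chr19:6067851-6068100, minus strand) are shown as the promoter of a gene that rose, with the box, here on the other strand, in capitals:
Tm7sf2: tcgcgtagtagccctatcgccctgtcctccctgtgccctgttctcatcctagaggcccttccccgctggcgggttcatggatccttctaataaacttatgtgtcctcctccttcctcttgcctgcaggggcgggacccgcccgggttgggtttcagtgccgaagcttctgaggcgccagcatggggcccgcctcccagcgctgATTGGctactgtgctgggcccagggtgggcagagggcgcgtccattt
A match in letters is no evidence of binding.

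Among the subunits of oxidative phosphorylation, the mitochondrial machinery that makes ATP, a part rose by small steps and none fell. Of 73 tested nuclear-encoded subunits 15 rose, or 20.5% against the 2.45% of all features that rose, with a median of 0.26 and 70 positive changes. By role, 7 of 33 rose in complex I, which takes electrons from NADH, 2 of 12 in complexes II and III, 3 of 12 in complex IV, which hands them to oxygen, and 3 of 16 in ATP synthase. The complex I subunit Ndufb5 read 11.32, 11.49, 11.44 and 11.45 in HighFat 9% livers, against 10.88, 10.46, 11.02 and 10.90 in Control 9% livers (0.61 ± 0.12, adjusted p = 0.0122). Ndufb2 rose by 0.54, Ndufa10 by 0.46 and Ndufa7 by 0.41. Uqcr11 and Uqcr10 of complex III rose by 0.41 and 0.37. Cox7b of complex IV read 10.22, 10.19, 10.59 and 10.23 in HighFat 9% livers, against 9.68, 8.99, 9.73 and 9.37 in Control 9% livers (0.87 ± 0.18), and Cox6b1 and Cox4i1 rose by 0.47 and 0.25. Atp5k, detected on 3 Control 9% arrays, rose by 1.19, the most of these subunits, followed in its complex by Atp5e at 0.48 and Atp5d at 0.35. The median deviation of the 73 subunits was 0.36, 0.26, 0.28 and 0.19 on the HighFat 9% arrays, against 0.02, -0.02, -0.05 and 0.03 on the Control 9% arrays, without overlap. On the same scale it was 0.29, 0.07, 0.14 and 0.12 on the HighFat 18% arrays, the first of them the dimmest of its group, and 0.00, 0.00, 0.03 and 0.22 on the Control 18% arrays. Proteins of the mitochondrial ribosome, which translates the subunits encoded in mitochondrial DNA, moved the same way by less: 7 of 68 rose, with a median of 0.17 and 62 positive changes, among them Mrpl40 (0.45 ± 0.08), Mrpl49 (0.45), Mrps15 (0.43) and Mrpl30 (0.42). The cytosolic ribosome had a median of 0.00 over 54 genes, with Rps27l higher by 0.27 and Rpl27a lower by 0.44, the second not seen on a further probe at 0.04. Of 20 citric acid cycle genes Suclg1 alone rose, by 0.36, with further probes at 0.37 and 0.82 that did not pass. That was 5% of the list called, near the 4.35% of all features. Without HighFat 9% replicate 3 only 1 subunit of oxidative phosphorylation and 2 mitochondrial ribosomal proteins passed, and the medians of these lists were 0.17 and 0.10 once raw intensity entered as a covariate.

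Among the tested genes of complement, clotting and protease inhibition, whose proteins are secreted into plasma, a part fell and none rose. Of 21 complement genes 7 fell, of 23 genes of coagulation and fibrinolysis 7, and of 20 serpins and inter-alpha-trypsin inhibitors 5 (33.3, 30.4 and 25%, against the 1.91% of all features that fell). The medians were -0.30, -0.26 and -0.25. C8b, a chain of the membrane attack complex, read 9.11, 9.36, 9.02 and 9.39 in HighFat 9% livers, against 9.91, 10.52, 10.22 and 10.35 in Control 9% livers (-1.03 ± 0.28, adjusted p = 0.0485). C1s1, a protease of the C1 complex of the classical pathway, fell by 0.95 with a further probe at -0.89, complement C5 (Hc) by 0.65 and the inhibitor C4bp by 0.57. Among clotting factors F7 fell by 0.60, F5 by 0.49 and F13b by 0.48. Prekallikrein, Klkb1, read 10.56, 10.79, 10.60 and 10.66 in HighFat 9% livers, against 11.15, 11.12, 11.07 and 11.14 in Control 9% livers (-0.47 ± 0.09, adjusted p = 0.0126). Klkb1 was thus tight within both groups and the 2 groups stood apart. Serpina7, thyroxine-binding globulin, fell by 0.90, and Itih3 and Itih1, which attach to hyaluronan, by 0.82 and 0.36. Of 22 acute phase genes only Cxcl1 passed (4.55%, near the 4.35% of all features). Of 16 genes of the major urinary proteins and growth hormone axis (12.5% called) Igfals fell by 0.50 and Jak2 by 0.40. A further probe of Jak2 at -0.17 did not pass. The median deviation of the complement genes was -0.40, -0.26, -0.36 and -0.29 on the HighFat 9% arrays, against -0.07, 0.21, -0.03 and -0.06 on the Control 9% arrays. Without HighFat 9% replicate 3 no complement gene, no serpin or inter-alpha-trypsin inhibitor and 3 coagulation genes passed. With raw intensity as a covariate the complement, coagulation and serpin medians were -0.26, -0.16 and -0.20. Under median scaling, taken from the median of all features there, they were -0.20, -0.13 and -0.04. Hepatocyte markers had 0 of 16 called and a median of -0.04, or 0.14 under median scaling. In 3 of the 16 every HighFat 9% liver lay below every Control 9% liver, against 498 of all 9446 features. Their summed linear intensity was 214000 to 224000 in HighFat 9% livers and 225000 to 242000 in Control 9% livers. Whether the share of hepatocytes took part in these falls was not tested.

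Genes of ER folding and the unfolded protein response fell in part: 4 of 29 fell (13.8%, against the 1.91% of all features), none rose, and the median was -0.22. Without HighFat 9% replicate 3 only 1 of them passed, and with raw intensity as a covariate the median was -0.13. Under median scaling, taken from the median of all features there, the list's median was -0.10. The protein disulphide isomerase Pdia3 read 11.28, 11.24, 11.02 and 11.09 in HighFat 9% livers, against 11.84, 11.79, 11.71 and 12.00 in Control 9% livers (-0.68 ± 0.09, adjusted p = 0.0026). Pdia4 fell by 0.86 and Pdia5 by 0.71, the second with further probes at -0.64 and -0.68 that did not pass. Xbp1, the transcription factor that drives many secretory genes, read 11.77, 11.71, 11.46 and 11.70 in HighFat 9% livers, against 12.15, 12.19, 12.18 and 12.27 in Control 9% livers (-0.54 ± 0.12, adjusted p = 0.0209). Every HighFat 9% liver lay below every Control 9% liver for Pdia3 and Xbp1. Hspa5, the main ER chaperone, had a change of -0.09 ± 0.27 and did not pass. Promoters of this group carry CCAAT boxes and, in part, the ER stress element, CCAAT followed by CCACG with 9 bases between. Read on both strands of the RefSeq promoters, CCAAT stood in 23 of 27 matched genes of the list (85.2%), and the element in 8 of them (29.6%), against 39 of all 32851 promoters (0.119%) and 13 of the tested genes (0.183%). None of the 8 genes with the element passed and their median was -0.25, while all 4 calls were among the 19 without it, whose median was -0.14. Shown are the 250 bases before the start of Pdia4 (GRCm38.p6, chr6:47813513-47813762, minus strand), which fell, with its 3 CCAAT boxes in capitals, and of Hspa5 (chr2:34771840-34772089, plus strand), which did not pass, with the 2 ends of its ER stress element in capitals:
Pdia4: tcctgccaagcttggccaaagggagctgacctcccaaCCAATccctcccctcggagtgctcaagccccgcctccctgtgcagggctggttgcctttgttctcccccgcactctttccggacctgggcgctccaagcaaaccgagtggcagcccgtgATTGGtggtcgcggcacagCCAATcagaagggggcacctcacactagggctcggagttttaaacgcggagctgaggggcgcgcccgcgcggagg
Hspa5: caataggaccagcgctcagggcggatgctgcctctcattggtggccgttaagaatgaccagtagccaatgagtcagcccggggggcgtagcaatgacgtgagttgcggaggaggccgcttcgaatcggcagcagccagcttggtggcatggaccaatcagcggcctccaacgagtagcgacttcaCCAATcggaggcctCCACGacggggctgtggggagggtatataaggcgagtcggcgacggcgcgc
Here too a match says nothing of binding. Of 46 genes of ER translocation and vesicle transport none fell, and Copb1 and Srp19 rose by 0.55 and 0.50. The share called, 4.35%, was that of all features, and the list's median was -0.01.

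Detoxifying enzymes changed in both directions. Of 20 glutathione transferases 5 rose (25%, against the 2.45% of all features that rose) and none fell, with a median of 0.34. Without HighFat 9% replicate 3 these were 3. Without the 4 dimmest female arrays, with 1 HighFat 9% array left, the median was 0.14. Gstm2 read 12.92, 12.25, 12.54 and 11.94 in HighFat 9% livers, against 11.31, 11.69, 11.01 and 11.22 in Control 9% livers, a change of 1.10 ± 0.20 (adjusted p = 0.0099), and further probes gave 1.02 and 1.07. Gstt3 rose by 0.93, Gstm4 by 0.78 and Gsta4 by 0.74, and probes of these close relatives could share signal. Gss, which completes glutathione, read 7.13, 6.11, 7.08 and 7.07 in HighFat 9% livers, against 7.84, 7.99, 8.02 and 8.18 in Control 9% livers (-1.16 ± 0.20, adjusted p = 0.00867), with further probes at -0.82 and -0.49, the second not past the threshold. Csad, the enzyme that decarboxylates cysteine sulphinate on the way to taurine, fell by 0.90. Among 24 genes of glutathione, taurine and methionine Bhmt thus rose and Gss and Csad fell (12.5% called, against 4.35% of all features). Cyp17a1, a steroid hydroxylase that is sex-biased in mouse liver, read 12.86, 12.52, 12.48 and 12.34 in HighFat 9% livers, against 11.56, 11.17, 11.38 and 11.15 in Control 9% livers, and rose by 1.24 ± 0.24. The aldehyde dehydrogenase Aldh1a7 rose by 1.29 and Aldh5a1 by 0.41, while the sulphotransferase Sult1d1 and the glycosyltransferase Ugt3a2 fell by 0.72 and 0.46. Of 31 cytochromes P450 of families 1 to 3 only Cyp2c50 passed, lower by 0.46, with a further probe at 0.14. That share, 3.23%, was under the 4.35% of all features. The lipid peroxide reductase Gpx4 rose by 0.49 and the ER peroxiredoxin Prdx4 fell by 0.46.

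Fuel and signalling genes gave few calls by number. Against the 4.35% of all features, the share called was 9.52% for interferon response and 7.14% for glucocorticoid response. It was 6.45% for amino acids and urea, and 5% each for gluconeogenesis and glycolysis and for immediate early genes. Of 20 genes of gluconeogenesis and glycolysis, Ugp2, which makes UDP-glucose, fell by 0.53, and Pck1, which commits carbon to gluconeogenesis, had a change of 0.08 ± 0.26 that did not pass. Among 31 genes that break down amino acids or make urea the transaminases Gpt2 and Got2 rose by 0.77 and 0.37. Of 14 glucocorticoid response genes 11 had a negative change, with a median of -0.34, and the kinase Sgk1 alone passed, lower by 0.57. The median of that list was -0.11 with raw intensity as a covariate. It was 0.29 without the 4 dimmest female arrays, a fit with 1 HighFat 9% array left. In the same fits the circadian clock genes, at -0.19 with all arrays and no covariate, had 0.15 and 0.11, and the heat shock proteins, otherwise at -0.12, had 0.04 and 0.16. Among nuclear receptors the liver X receptor Nr1h3 stood at -0.09 ± 0.09 without passing. No gene passed among 20 of insulin signalling, 16 of the circadian clock, 35 of the proteasome, 16 heat shock proteins, 21 of the cell cycle and 11 of DNA methylation, by limma, and their medians ranged from -0.19 to 0.06. Of 20 immediate early genes 19 had a negative change, with a median of -0.67, but only Dusp6, a phosphatase of ERK, passed, at -0.65, and its further probes gave -1.10 and -1.35. The median deviation of that list was -0.70, -0.86, -0.76 and -0.20 on the HighFat 9% arrays, against -0.60, 0.50, 0.01 and 0.24 on the Control 9% arrays, so that Control 9% replicate 1 sat among the HighFat 9% values. The median change was -0.43 with raw intensity as a covariate. It was -0.20 without the 4 dimmest female arrays, again with 1 HighFat 9% array left. Of 42 interferon response genes Ifi27l2b rose and Irf5, Usp18 (-0.87) and the RNA sensor Ddx58 (-0.49) fell, and the median was -0.15 with 34 negative changes.

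Markers of other cell types gave few calls by number. The share called was 9.09% of the stellate cell and fibroblast genes and 5.88% of the endothelial genes, against 4.35% of all features. Among 17 endothelial genes Stab2, a scavenger receptor of sinusoids, fell by 0.41. Their summed linear intensity was 9490 to 10100 in HighFat 9% livers and 10300 to 11700 in Control 9% livers, with Kdr detected on none of the 8 arrays. Among 22 stellate cell and fibroblast genes Lum, a matrix proteoglycan, fell by 0.66 and Hgf, hepatocyte growth factor, was at least 1.40-fold lower, detected on none of the HighFat 9% arrays. The summed intensity was 14800 to 18100 in HighFat 9% livers and 15100 to 20000 in Control 9% livers. Macrophage genes (0 of 16), neutrophil genes (0 of 5) and lymphocyte genes (0 of 10) had medians of -0.14, -0.29 and -0.10, and Cd4, Cd8a, Ms4a1, Mpo and Elane were detected on none of the 8 arrays. All 6 erythrocyte genes had positive changes, with a median of 0.50 and none past the threshold, and their sum was 9810 to 14100 in HighFat 9% livers and 7110 to 13100 in Control 9% livers. Hepatocyte genes summed to 214000 to 224000 in HighFat 9% livers and 225000 to 242000 in Control 9% livers, the probes for Fabp1 among them being detected on none of the 8 arrays. What part cell composition had in the changes above was not tested.

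The direction of change went with gene length. The genes that rose had a median genomic span of 11.9 kb (n = 210 named genes) and those that fell 28.1 kb (n = 157), against 21.2 kb over all named genes. With the named genes split by span into 5 sets of equal size, 4.54% rose and 1.09% fell in the set of shortest genes (up to 7.32 kb), and 1.32% rose and 2.24% fell in the set of longest genes (58.8 kb and over), with a steady order between them. The median level of the shortest set minus that of the longest, each as a deviation from the Control 9% mean, was 0.14, 0.09, 0.15 and 0.06 on the HighFat 9% arrays, against -0.01, 0.01, -0.03 and 0.05 on the Control 9% arrays. HighFat 9% replicate 4, the brightest of its group before normalization, had the smallest value of its group, and the groups did not overlap. With raw intensity as a covariate the median changes of the shortest and longest sets were 0.03 and -0.02, against 0.06 and -0.05 without it. The subunits of oxidative phosphorylation had a median span of 7.13 kb and the mitochondrial ribosome 7.69 kb. The complement, coagulation and serpin lists, of which a part fell, had 15.8, 16.4 and 11.7 kb, also under the median of all named genes. Whether length took part in these changes was not tested.

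**Figure D3:**
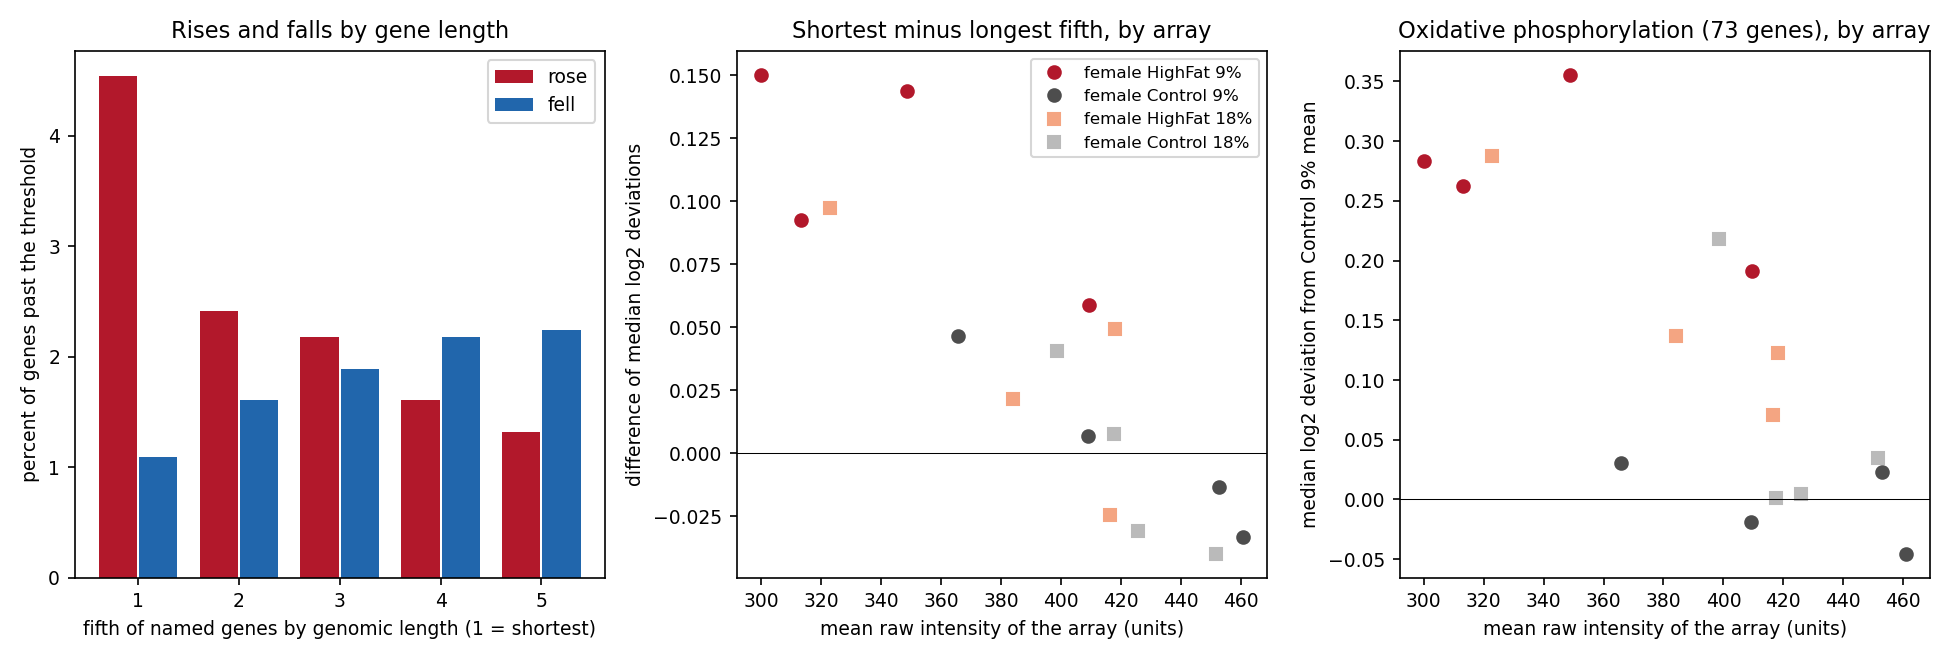
Share of named genes that rose and that fell in each of 5 sets of genes ordered by length, in percent, and the level of the shortest minus the longest set in log2 units against mean raw intensity for each female array, beside the median deviation of the oxidative phosphorylation subunits against the same axis. The share that rose is 4.54% in the shortest set and 1.32% in the longest, and dim HighFat 18% replicate 1 lies near the HighFat 9% arrays in both panels of arrays.

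After 18% mothers the same diet contrast, HighFat 18% against Control 18%, gave 8 called features of 9446 (0.0847%), 5 of them among the 411. The 411 kept their sign there in 395, or 96.1%, against 66.3% of all features, and 400 of them were smaller, with medians of 0.27 for the rises and -0.28 for the falls. They had been chosen for their size after 9% mothers, which favours larger values there. The difference of the high-fat effect between 9% and 18% mothers passed for 0 of 9446 features (0% by limma, 500 at an unadjusted p under 0.05, smallest adjusted p = 0.875), and for 113 of the 411 the unadjusted p was under 0.05. The oxidative phosphorylation subunits had a median of 0.26 after 9% mothers and 0.06 after 18% mothers, and the complement genes -0.30 and -0.06. The ER folding genes had -0.22 after 9% mothers and -0.28 after 18% mothers, the lipid droplet proteins 0.20 and 0.25, and the cholesterol synthesis genes 0.64 and 0.47. Pltp rose in both, by 2.37 ± 0.23 and 1.42, and Csad fell by 0.90 after 9% mothers and by 1.21 after 18% mothers. Usp18, a brake on interferon signalling, had -0.87 ± 0.17 after 9% mothers and 0.21 after 18% mothers. The macrophage genes had a median of -0.14 (-0.26 to 0.06 with 1 array left out, 0.29 without the 4 dimmest) and 0.27, and the interferon genes -0.15 and 0.18, with no difference past the threshold for any gene.

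**Figure D4:**
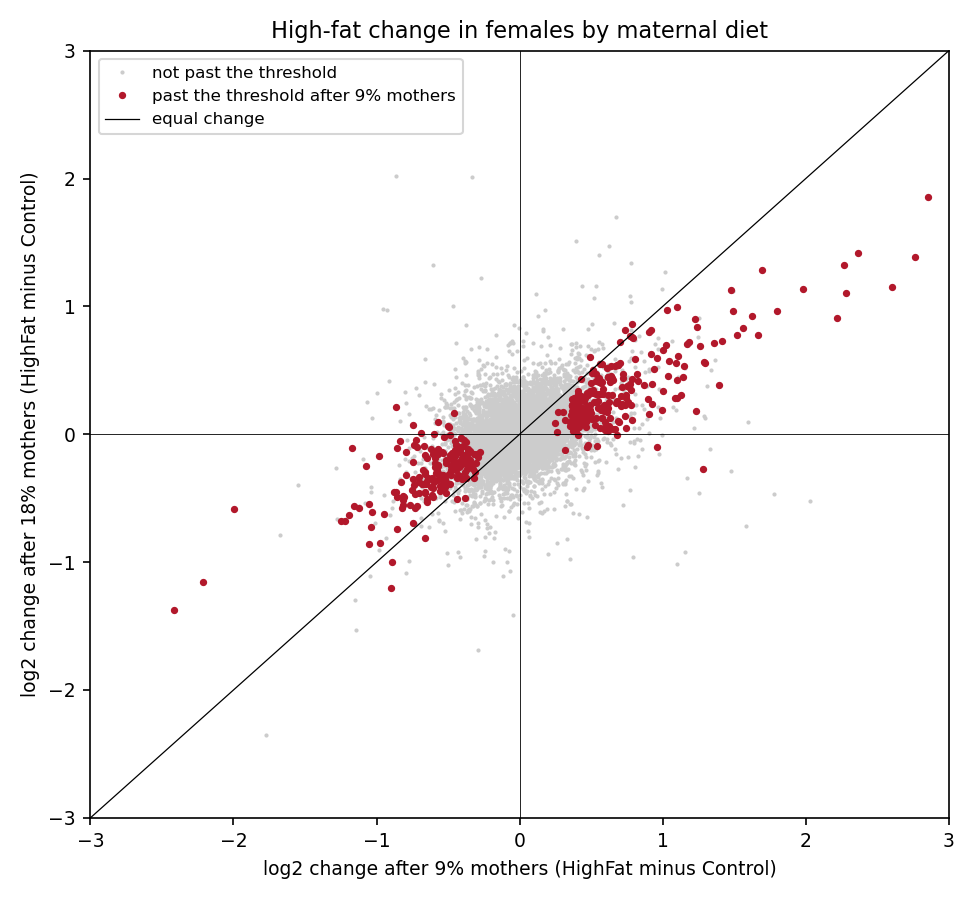
High-fat effect in log2 units for each feature, red where called after 9% mothers and grey otherwise, after 9% mothers on the horizontal axis and after 18% mothers on the vertical axis, with the line of equal effects. Of the 411 red points 395 share their sign and 400 lie nearer to 0 on the vertical axis.

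In males of 9% mothers, HighFat 9% against Control 9%, 11 of 10297 features were called (0.107%), and 7 genes were called in both sexes. Of the 316 called female genes also measured in males, 283 had the same sign (89.6%, against 63.7% of all genes shared), with medians of 0.27 and -0.23 for the female rises and falls. The difference between females and males passed for 0 of 6941 shared genes (0% by limma, 535 at an unadjusted p under 0.05, smallest adjusted p = 0.127). Cidec changed by 2.22 in females and 3.54 in males, Apoa4 by 2.27 and 2.35, Cyp17a1 by 1.24 and 3.00, and Gstt3 by 0.93 and 1.15, all 4 called in both sexes. The oxidative phosphorylation subunits had a median of 0.26 in females and 0.11 in males. Lmo4, a LIM-domain transcription cofactor, had the smallest adjusted p of the difference together with Gpx6 and Oscar, with 0.73 in females and -0.19 in males. Sex and array version cannot be told apart here.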

How the data were processed

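Liver RNA was hybridised to Illumina bead arrays, 1 array per mouse, with 16 arrays of one version for females and 16 of another for males. The authors deposited a non-normalised table of background-subtracted intensity per probe with a detection p-value per probe and array, per the file headers, and a normalised intensity table. The submitters' processing notes list BeadStudio, with no version; how it was run is not stated.

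Groups came from the titles. Using limma 3.58.1 in R 4.3.3, neqc corrected the non-normalised intensities for background and made their quantiles equal, by sex; it inferred the negative controls from the detection p-values and used an offset of 16. A probe was kept where 4 or more of 16 arrays had a detection p below 0.05, and the probe with the highest mean stood for a gene. Gene symbols came from the platform annotation (23978 of 25697 probes had 1 symbol, 0 several and 1719 none), updated through RefSeq, which also gave gene spans and promoters. A model of 4 groups with eBayes and an intensity trend was fitted, with Benjamini-Hochberg adjustment over all features at 0.05. The difference between maternal diets was the interaction, and that between sexes combined the standard errors of both fits. The script was tested on simulated data.

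Genes were named by rule: the 15 largest rises and 15 largest falls with groups that did not overlap, up to 4 called members of each list and, where under 2 passed, those nearest to passing, the leading genes of each difference, and Pltp, Cyp4a14, Fasn, Scd1, Insig1, Xbp1, Hspa5, Pck1, Nr1h3 and Ppara; not all genes so named are printed. The comparison, its members and the gene lists were chosen with earlier results of these data known. The alternatives tried changed the offset, scaling, filter, probe choice, variance model, array weights, replicate block, raw intensity as a covariate and the arrays used. No array duplicated another. The labels do not say whether replicate numbers pair the arrays, and the check of their deviations could not decide it. Figures were drawn with matplotlib 3.10.9 in Python 3.11.15.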

Additional observations from a re-analysis of the deposited data

Results flagged for a closer look

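In each group of 4 arrays, the highest or lowest was marked where its gap to the nearest other array, divided by the group's range, exceeded Dixon's critical value. That held for 20 of 256 sets of values of the genes named other than Cdkn1a, a rule that chance alone meets in about 1 of 20 groups.

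Among HighFat 9% livers, replicate 2 was apart in 4 genes. Its Insig1 level was 6.51, with the others at 9.13 to 9.57, and its Gss level was 6.11, with the others at 7.07 to 7.13. Hnrnph2 stood at 4.58 there, where no HighFat 9% array detected it, and Stab2 at 9.09. Replicate 3 was apart in 4 genes: Atp5k at 7.49 with the others at 6.35 to 6.52, Cox7b at 10.59, Dhcr7 at 9.59 and Pex11a at 10.83. Atp5k and Cox7b, both subunits of oxidative phosphorylation, and Dhcr7 were higher there and Pex11a lower. Replicate 4 was the lowest in Crat at 7.50, Elovl5 at 14.15 and Slc39a5 at 6.23, and replicate 1 in Ifi27l2b at 6.88. Each of these values but that of Stab2 lay on its own group's side of all Control 9% livers; Control 9% replicate 4 had Stab2 at 9.04.

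Among Control 9% livers, replicate 2 was apart in Cyp4f14 at 12.31, Dusp6 at 12.92 and Hc at 11.68. Replicate 4 was apart in Gpt2 at 10.92, Rpl27a at 9.30 and Serpina7 at 9.41, the last with the others at 10.24 to 10.29. Ddx58 read 7.80 in replicate 3 and Slc25a1 read 10.62 in replicate 1.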

How the results depend on the processing

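The count of 411 features stayed within 1.5 times under an offset of 50, the submitters' normalised values, detection on 8 of 16 arrays, every probe on its own, no intensity trend, array weights and the replicate block (448 calls, 363 of them shared). Median scaling gave 679 calls (132 higher, 547 lower), no detection filter 219 of 18312 features, the 8 arrays of 9% mothers alone 219, raw intensity as a covariate 3, and leaving out the 4 dimmest female arrays 0, a fit in which the single HighFat 9% array left was assumed to vary like the other groups. Leaving out 1 array gave 83 to 608. Same-numbered arrays of the 2 groups deviated together with correlations of -0.02, -0.03, -0.01 and 0.32 for replicates 1, 2, 3 and 4. Only for replicate 4 was the same-numbered control the most correlated one. The labels give no pairing, and these few values cannot decide whether there was one. The difference between maternal diets gave 0 in all alternatives and with each array left out. The difference between sexes gave 0 in all alternatives and 0 to 3 with 1 array left out (3 without male Control 9% replicate 1). No called gene named in the text changed direction in any alternative. The uncalled changes of 4 genes turned their sign with some array left out, over ranges of -0.16 to 0.54 for Cyp4a14, -0.0818 to 0.79 for Fasn, -0.36 to 0.0320 for Hspa5 and -0.11 to 0.22 for Pck1, as did the medians of 13 of 52 lists, among them bile acids (-0.0781 to 0.0295), mitochondrial fatty acid oxidation (-0.0181 to 0.186), macrophage (-0.26 to 0.06), acute phase (-0.19 to 0.04) and stellate cell (-0.14 to 0.00). With the raw intensity covariate Hspa5 had 0.34; without the 4 dimmest arrays Hspa5 had 0.0718, the bile acid list 0.00998 and insulin signalling 0.0248, and under median scaling the hepatocyte list had 0.14, each against a main value of the other sign. Raw intensity as a covariate turned the medians of 4 lists, median scaling 6 and leaving out the 4 dimmest arrays 10. Without HighFat 9% replicate 3 no gene of the growth hormone axis, ER transport or PPAR-alpha lists passed. The causes were not tested. Detection limited the dim genes, whose folds are bounds, and 4 arrays a group limited the rest.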

Other observations

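Gene families chosen after their values were seen gave further counts, which that choice favours. Each is to be read against all 9446 features, of which 49.8% had a positive change, 2.45% rose and 1.91% fell. Of 16 tested genes of heterogeneous nuclear ribonucleoproteins, which package and splice pre-mRNA, 15 had a negative change in HighFat 9% livers with a median of -0.21, and 4 fell. Hnrnpk fell by 0.67, with 8.26, 7.38, 8.09 and 8.21 in HighFat 9% livers, against 8.42, 8.75, 8.48 and 8.96 in Control 9% livers, but its further probe had -0.0141 and did not pass. Hnrnpl and Hnrnph1 fell by 0.43 and 0.37, the second with 4 further probes at -0.45 to -0.33 that did not pass. Hnrnph2 was detected on all 4 Control 9% arrays, by themselves enough for the detection filter, and on none of the HighFat 9% arrays. The splicing factors of the Srsf family had 8 of 8 negative changes with a median of -0.37, none past the threshold. Of 10 genes of replication-dependent histone H2A all had positive changes, with a median of 0.55. H2ac22 rose by 0.90, H2ac10 by 0.69 and H2ac12 by 0.60, though probes of these near-identical genes could share signal.

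Among 11 carboxylesterases, which hydrolyse lipid esters and drugs, Ces2e rose by 0.96, with 8.25, 8.35, 8.21 and 7.97 in HighFat 9% livers, against 6.97, 7.22, 7.52 and 7.23 in Control 9% livers. Ces1e rose by 0.74, while Ces3b fell by 0.86 (further probes at -0.46 and -0.30 did not pass), Ces1b by 0.75 and Ces1c by 0.32. Of all features 2.45% rose and 1.91% fell. Further rises that no list held were Them7, a thioesterase family member, by 1.10 ± 0.15 and Fhit, a dinucleoside triphosphate hydrolase, by 1.10 ± 0.15. Ces2e, Ces1e, Them7, Fhit, Hnrnph2 and Ces1b passed in all 8 fits that left out 1 array, and Hnrnpl, Hnrnph1 and Ces1c in 1 of them. None of the 5 major urinary protein genes passed.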
